A study of Homo sapiens with 3 samples.

Results

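CTHRC1 and a set of receptors and partners of the planar polarity branch of Wnt signalling were followed in PC3-Luc, a human prostate cancer cell line, in 3 engineered versions. The set was a fixed list of 10 genes, chosen with earlier results of these data known. It held CTHRC1, WNT5A, WNT5B, ROR1, ROR2, RYK, PTK7, FZD2, FZD6 and VANGL1, found by symbol in a table of 21726 genes. Of the 10, 9 had a row there, ROR2 being the exception (every listed gene had a count in at least 1 library), and 8 of them passed the minimum of counts set for a test (WNT5B did not). PC3 is an androgen-independent line of prostate adenocarcinoma, and all 3 lines carried pMSCV-luc, a vector with a luciferase gene. The shCtrl line carried a control hairpin, and the sh718 and sh720 lines carried different short hairpins against CTHRC1. Each line was 1 sample in the labels with 3 libraries, from cells grown for 24 h, so a line was 1 engineered population, and the labels do not say whether its libraries came from separate cultures. The p-values therefore measure the spread between libraries, which may be technical.

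CTHRC1 encodes a secreted glycoprotein of the extracellular matrix that was described as binding Wnt ligands together with Frizzled and ROR receptors, and as favouring the planar polarity branch over the beta-catenin branch. In that branch WNT5A and WNT5B are the usual ligands, Frizzled proteins are the seven-pass receptors, and ROR1, ROR2, RYK and PTK7 are single-pass co-receptors with kinase-like domains. VANGL1 is a membrane scaffold of the core polarity machinery that sets cell orientation and directed migration through small GTPases and JNK.

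The 9 libraries held 883663 to 1108960 counts each, so 1 CPM, the usual scaled unit of sequencing counts, was about 1 count in a library. Levels below are CPM after TMM scaling, as mean ± SD over 3 libraries, and changes are log2 values with standard error (SE) from edgeR's quasi-likelihood test, with Benjamini-Hochberg adjustment over 9556 tested genes. Calls rest on an adjusted p under 0.05. Both comparisons with control use the same control libraries, and the direct comparison of sh718 with sh720 sets the difference of these 2 lines, each 1 engineered population, against the spread between libraries. It does not separate the hairpin from the line that carries it. The 7 markers chosen for the carcinoma line, which are not epithelial genes alone and include VIM and CD44, all had counts. VIM had the most, with 6782, 6938 and 8689 summed counts in shCtrl, sh718 and sh720. EPCAM had 108, 40 and 120, and CDH1 had only 6, 1 and 8. KLK3, KLK2 and FOLH1 of the luminal prostate markers had no row in the table. Markers of fibroblasts and osteoblasts, which can express CTHRC1, had rows for 5 of 11 and summed to 1.99 to 8.21 CPM over all libraries, with COL1A2, DCN and POSTN among those without a row. Leukocyte and endothelial markers had rows for 3 of 9. They summed to 24.5 to 26.7 CPM in shCtrl, 55.8 to 64.8 in sh718 and 15.2 to 31.8 in sh720, with PECAM1 at 69, 138 and 59 summed counts and KDR at 6, 33 and 0. The part of these markers in the results was not tested. The mitochondrial chromosome took 12 to 16.4% of a library's counts. Of its 13 protein-coding genes sh718 had 1 called higher and 8 lower than control and sh720 had 6 called lower. These are 69.2% and 46.2% of the 13, beside 20.4% and 6.85% of all tested genes, and their part was not tested either. In bulk RNA, fewer cells of a kind and less RNA per cell cannot be told apart.

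CTHRC1, the gene both hairpins target, lies on chromosome 8 of GRCh38 from 103371515 to 103382997 (plus strand, ENSG00000164932) and was low in every hairpin library. Its counts were 88, 117 and 126 in the control libraries, 2, 2 and 1 in sh718, and 18, 19 and 10 in sh720. On the scaled level this was 97.7, 130.1 and 115 CPM in control, 2.32, 1.99 and 1.04 in sh718, and 18.2, 19.5 and 9.55 in sh720. The 3 lines did not overlap. The lowest control library stood above the highest sh720 library, and the lowest sh720 library above the highest sh718 library. The log2 change was -5.91 in sh718 (SE 0.65, 95% interval -7.22 to -4.61, edgeR adjusted p 1.17e-25) and -2.86 in sh720 (SE 0.23, -3.32 to -2.40, adjusted p 1.19e-19). The sh718 value rests on 5 counts in all. After library scaling, the ratio of summed counts left 1.55% of control in sh718 and 13.7% in sh720. Their exact 95% intervals were 0.500 to 3.65% and 9.84 to 18.6%, and cover counting error only. Between the hairpin lines CTHRC1 was lower in sh718 by a log2 difference of -3.05 (SE 0.68, -4.41 to -1.69, adjusted p 2.50e-06).

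**Figure D1:**
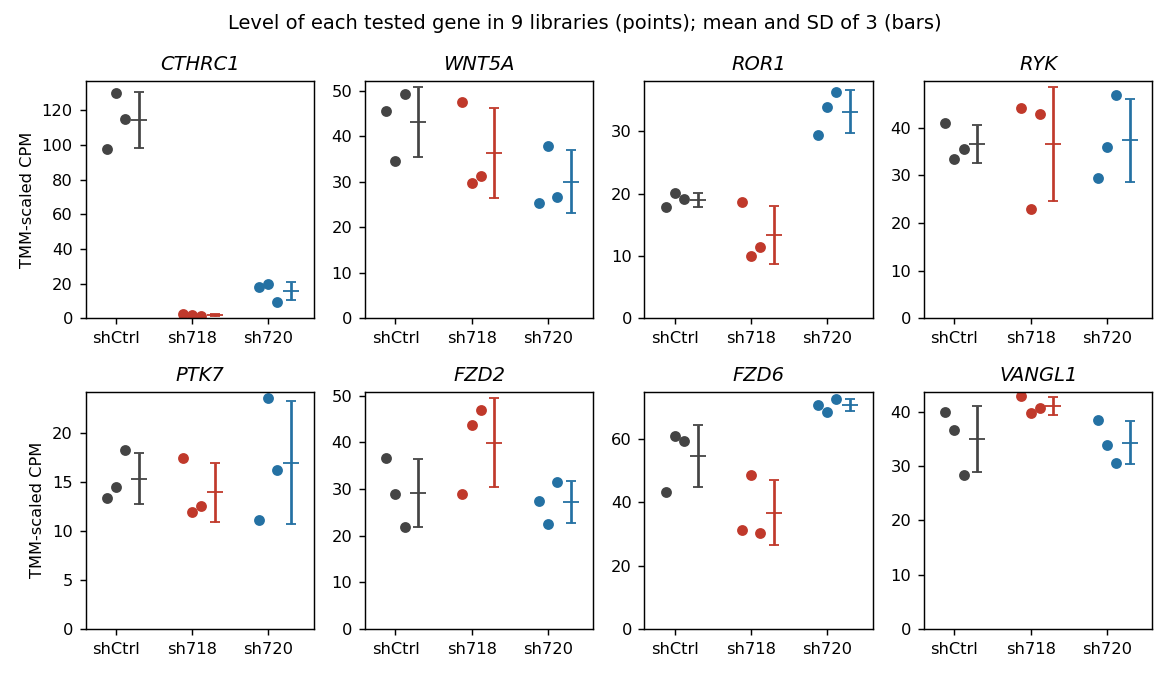
TMM-scaled CPM (vertical axes, each from 0) of the 8 tested genes in the shCtrl, sh718 and sh720 lines. Points are the 3 libraries of a line and bars their mean and SD. CTHRC1 separates all 3 lines, ROR1 and FZD6 are high in sh720 and low in sh718, and the other 5 genes overlap between each hairpin line and control.

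WNT5A (ENSG00000114251, chromosome 3, 55465715 to 55490539, minus strand), the ligand of the set with the counts for a test, was not called in any comparison. Its level was 45.5, 34.5 and 49.3 CPM in the control libraries, 47.6, 29.8 and 31.3 in sh718, and 25.3, 37.9 and 26.7 in sh720. All 3 lines overlapped, with 1 sh718 library among the high control values. The log2 change was -0.28 in sh718 (SE 0.21, 95% interval -0.69 to 0.13, edgeR adjusted p 0.366) and -0.54 in sh720 (SE 0.21, -0.96 to -0.11, adjusted p 0.122). The interval in sh720 excluded 0 before adjustment for all tested genes. The hairpin lines differed by 0.26 (SE 0.22, -0.19 to 0.70, adjusted p 0.431). The antisense gene WNT5A-AS1, which overlaps it, had 1, 0 and 1 summed counts in shCtrl, sh718 and sh720.

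WNT5B (ENSG00000111186, chromosome 12, 1529891 to 1647243, plus strand), the close relative of WNT5A, was at the limit of detection. It had 1 count in the shCtrl line, 0 in sh718 and 2 in sh720. The exact 95% Poisson intervals of the summed counts were 0.0253 to 5.57 in shCtrl and 0.242 to 7.22 in sh720, and cover counting error only. For the 0 in sh718 the same kind of interval ran from 0 to 3.69 counts in a total of 2891483, where 3 counts are 1.04 CPM. No difference between the lines was detectable at this depth.

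ROR1 (ENSG00000185483, chromosome 1, 63774022 to 64181498, plus strand), a co-receptor for WNT5A, was higher in sh720 and differed between the hairpin lines. The 250 bases before the start that RefSeq annotates, which lies just ahead of the GENCODE start given here, are shown because ROR1 had the widest difference between the hairpin lines among the members other than CTHRC1. They are chr1:63773767-63774016 on the plus strand, from RefSeq on GRCh38.p14, 5′ to 3′. Capitals mark a match to the CCAAT box, here on the minus strand, the 1 motif of the 6 searched that these bases hold.
ROR1: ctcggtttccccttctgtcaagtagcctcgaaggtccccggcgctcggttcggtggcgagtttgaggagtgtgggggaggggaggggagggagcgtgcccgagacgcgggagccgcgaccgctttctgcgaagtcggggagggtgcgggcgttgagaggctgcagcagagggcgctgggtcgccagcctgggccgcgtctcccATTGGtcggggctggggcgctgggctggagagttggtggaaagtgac
Besides CCAAT the search covered, on both strands, the GC box spelled GGGCGG. It also covered the TATA box, spelled as TATAAA, and the core of TCF/LEF sites, spelled as CTTTGAT. An AP-1 site was spelled as TGANTCA in this search, and the core of TEAD sites was spelled as GGAATG, and none of the 6 contains another. Promoter entries were matched for 7 of the 10 genes, the others being CTHRC1, FZD2 and FZD6. CCAAT stood in 1 of the 7 against 32% of 35116 promoters of the same length, and the GC box in 5 of the 7 (WNT5A, ROR2, RYK, PTK7 and VANGL1) against 42.6%. The letters of the TCF/LEF core, the AP-1 site and the TATA box were in none of the 7 windows, against 2.26%, 6.57% and 10.7% of all promoters, and those of the TEAD core were in VANGL1 alone, against 11.9%. A match is a description of letters and not a bound site. The bases shown hold 69.2% G and C, against a median of 58% for all promoters.

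ROR1 counted 17.8, 20 and 19.2 CPM in the control libraries, 18.6, 9.93 and 11.5 in sh718, and 29.4, 33.8 and 36.3 in sh720. Every sh720 library stood above every control and sh718 library, while sh718 library 1 lay within the control range. The mean was 19 ± 1.13 CPM in control, 13.3 ± 4.61 in sh718 and 33.2 ± 3.5 in sh720. In sh720 the gene was 1.74-fold higher than in control (log2 0.80, SE 0.25, 95% interval 0.30 to 1.30, edgeR adjusted p 0.0299). That call was lost without any 1 of the control libraries 1, 2 or 3 or without sh720 library 2 or 3 (log2 0.73 to 0.84, adjusted p 0.0668 to 0.139), and in DESeq2 (adjusted p 0.223). In sh718 the change was -0.53 (SE 0.31, -1.15 to 0.09, adjusted p 0.234) and was not called. The direct comparison called ROR1 lower in sh718 than in sh720 by a log2 of -1.33, which is 2.52-fold (SE 0.28, -1.90 to -0.76, adjusted p 8.30e-05), and this call held in all 17 alternative analyses. The antisense gene ROR1-AS1 had no row in the table. ROR2, the other ROR co-receptor, is not analysed further.

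RYK (ENSG00000163785, chromosome 3, 134065303 to 134250744, minus strand), a Wnt co-receptor with an inactive kinase domain, lay close to 0 change in every comparison. Its level was 41.1, 33.4 and 35.6 CPM in control, 44.1, 22.8 and 42.8 in sh718, and 29.4, 35.9 and 46.8 in sh720. The hairpin libraries reached both above and below the control ones. The log2 change was -0.02 in sh718 (SE 0.22, 95% interval -0.45 to 0.42, edgeR adjusted p 0.965), 0.04 in sh720 (SE 0.21, -0.39 to 0.46, adjusted p 0.956) and -0.05 between the hairpin lines (SE 0.21, -0.48 to 0.37, adjusted p 0.897). These intervals are unadjusted and cover the spread between libraries only. Changes of a size within them could not be told from 0.

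PTK7 (ENSG00000112655, chromosome 6, 43076268 to 43161719, plus strand), a pseudokinase co-receptor of planar polarity, had the fewest counts of the tested members, 135 over the 9 libraries. It stood at 13.3, 14.5 and 18.2 CPM in control, 17.4, 11.9 and 12.5 in sh718, and 11.1, 23.6 and 16.2 in sh720. The sh720 libraries alone spanned the range of both other lines. Its log2 change was -0.17 in sh718 (SE 0.33, 95% interval -0.82 to 0.49, edgeR adjusted p 0.779) and 0.13 in sh720 (SE 0.31, -0.49 to 0.74, adjusted p 0.886). The difference between the hairpin lines was -0.29 (SE 0.32, -0.93 to 0.35, adjusted p 0.549).

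FZD6 (ENSG00000164930, chromosome 8, 103298433 to 103332866, plus strand), a Frizzled receptor of planar polarity in skin and inner ear, was lower in sh718 than in control and differed between the hairpin lines. It stood at 43.3, 61.2 and 59.3 CPM in control, 31.4, 48.7 and 30.3 in sh718, and 70.9, 68.7 and 72.6 in sh720. The 3 sh720 libraries lay together above all others, while sh718 library 2 lay above control library 1. The mean was 54.6 ± 9.81 CPM in control, 36.8 ± 10.3 in sh718 and 70.7 ± 1.97 in sh720. In sh718 the log2 change was -0.56, 1.48-fold lower (SE 0.19, 95% interval -0.94 to -0.18, edgeR adjusted p 0.0241). The call was lost without control library 2 or 3 or without sh718 library 1 or 3 (log2 -0.49 to -0.43, adjusted p 0.103 to 0.149), in DESeq2 (adjusted p 0.141) and with the trends of GC content and gene length removed (adjusted p 0.0867). In sh720 the change was 0.37 (SE 0.16, 0.05 to 0.69, adjusted p 0.178), not called although no library overlapped with control. The direct comparison placed FZD6 lower in sh718 than in sh720 by -0.93, 1.90-fold (SE 0.18, -1.29 to -0.57, adjusted p 2.83e-05), in all 17 alternatives as well. The antisense gene BAALC-AS1, which overlaps FZD6, had 18, 16 and 15 summed counts in shCtrl, sh718 and sh720, and strand was not stated for the counting.

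FZD2 (ENSG00000180340, chromosome 17, 44557459 to 44559570, plus strand), a Frizzled receptor used by WNT5A, had its higher values in sh718 and was not called. It stood at 36.6, 28.9 and 21.9 CPM in control, 29, 43.7 and 47 in sh718, and 27.4, 22.5 and 31.5 in sh720. Of the sh718 libraries 2 exceeded every other library and 1 lay within the control range. The log2 change was 0.49 in sh718 (SE 0.22, 95% interval 0.04 to 0.93, edgeR adjusted p 0.111) and -0.07 in sh720 (SE 0.24, -0.55 to 0.40, adjusted p 0.916). Between the hairpin lines it was 0.56 (SE 0.22, 0.12 to 1.01, adjusted p 0.0516), just outside the threshold. The difference was called without control library 3 (0.56, adjusted p 0.0477), without sh718 library 1 (0.73, adjusted p 0.0143) and without sh720 library 3 (0.69, adjusted p 0.0452). The change in sh718 against control was called without sh718 library 1 (0.66, adjusted p 0.0352).

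VANGL1 (ENSG00000173218, chromosome 1, 115641953 to 115698224, plus strand), the core polarity scaffold, was also not called. Its level was 40, 36.7 and 28.3 CPM in control, 43, 39.7 and 40.7 in sh718, and 38.5, 33.8 and 30.6 in sh720. The sh718 libraries were tight and lay above the sh720 ones, and the highest control library exceeded the lowest sh718 library. Its log2 change was 0.25 in sh718 (SE 0.20, 95% interval -0.15 to 0.65, edgeR adjusted p 0.414) and -0.01 in sh720 (SE 0.21, -0.42 to 0.40, adjusted p 0.984). The difference between the hairpin lines was 0.26 (SE 0.20, -0.13 to 0.66, adjusted p 0.361).

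**Figure D2:**
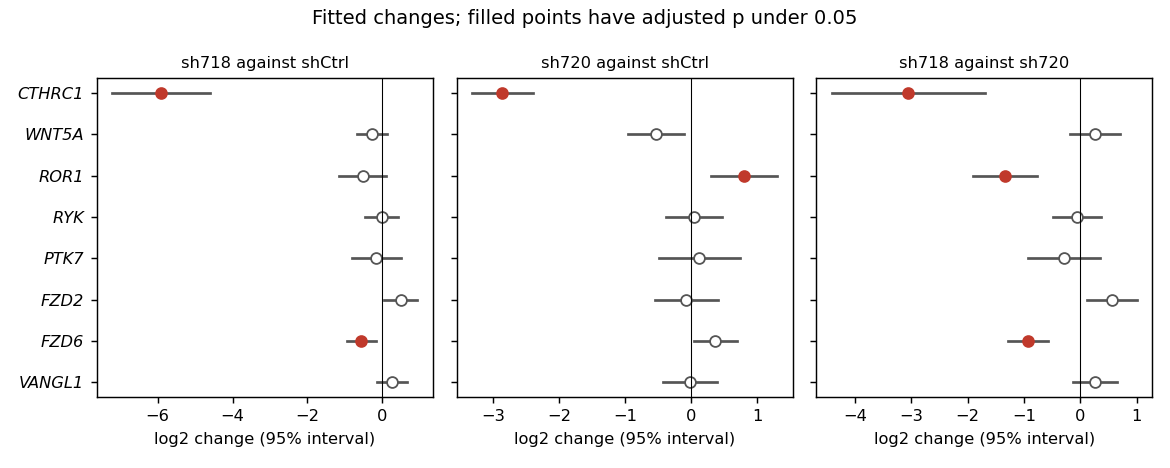
Fitted log2 changes of the 8 tested genes (points) with 95% intervals (lines) for sh718 against shCtrl, sh720 against shCtrl and sh718 against sh720. Horizontal scales differ between panels. Filled points, called by edgeR at an adjusted p under 0.05, are CTHRC1 and FZD6 on the left, CTHRC1 and ROR1 in the middle, and CTHRC1, ROR1 and FZD6 on the right.

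Because the members were chosen with earlier results of these data known, the shares below describe them and are no test of the set. Of the 8 tested members, 2 were called in sh718 against control, both lower, where 20.4% of all tested genes were called (9.56% higher and 10.8% lower). In sh720 against control 2 were called, 1 higher and 1 lower, where 6.85% of all tested genes were (3.43% higher and 3.42% lower). Between the hairpin lines 3 were called, all lower in sh718, where 25.3% of all tested genes were (12.3% higher and 13% lower). CTHRC1, the gene the hairpins target, was among the calls of each comparison, and the other 7 members had 1, 1 and 2 calls. Libraries did not overlap for 1, 3 and 4 of the 8 members in the 3 comparisons, against 33.5%, 23.5% and 37.1% of all tested genes. Median log2 changes of the members other than CTHRC1 were -0.17, 0.04 and -0.05, beside medians of 0.00237, 0.00151 and -0.00211 over all tested genes. Line means ran in the order control, sh720, sh718 for CTHRC1 and for none of the other 7 tested members. ROR1, FZD6, RYK and PTK7 had their highest mean in sh720 and their lowest in sh718, FZD2 and VANGL1 the reverse, and WNT5A its highest in control and lowest in sh720. Of the 7 members other than CTHRC1, the order of sh720 and sh718 passed the test for ROR1 and FZD6.

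Levels were compared between genes as CPM per kilobase of merged exons, which presumes that reads fall along the whole transcript, with a library kit not given in the sources used here. In the control line CTHRC1 stood first at 64.3 ± 9.12 CPM per kilobase, at rank 725 of 9544 tested genes with a gene length. FZD2 followed at 13.8 ± 3.49 and FZD6 at 13.4 ± 2.41, and these neighbours overlapped. WNT5A at 5.83 ± 1.04 overlapped with RYK at 4.56 ± 0.494, and RYK with VANGL1 at 3.86 ± 0.666. ROR1 stood below them without overlap at 2.83 ± 0.169, and PTK7 was lowest at 1.70 ± 0.286. The median of all tested genes was 6.59 in this line, so both Frizzled genes lay above it and the ligand, co-receptors and scaffold below it. In sh718 FZD2 was first at 18.9 ± 4.53, clear of FZD6 at 9.05 ± 2.54, and CTHRC1 was last at 1 ± 0.373. In sh720 FZD6 was first at 17.4 ± 0.484, clear of FZD2 at 12.9 ± 2.13, CTHRC1 was the next at 8.87 ± 3.05 and overlapped with FZD2, and ROR1 at 4.94 ± 0.521 overlapped with RYK at 4.64 ± 1.09.

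FZD6 and CTHRC1 are near neighbours on chromosome 8, with 38.6 kb between the end of FZD6 and the start of CTHRC1, so the tested genes around them were examined. The nearest on the far side of CTHRC1 was DCAF13, which encodes a factor of ribosome assembly (103414714 to 103443453). Its start lay 43.2 kb after the start of CTHRC1, and by this measure FZD6 lay 73.1 kb before CTHRC1. The distances of LRP12 and AZIN1 below are also from start to start. DCAF13 had 197 CPM in sh718 against 291.6 in control (log2 -0.56, SE 0.10, edgeR adjusted p 4.64e-06) and 263 CPM in sh720 (log2 -0.15, adjusted p 0.392), and was lower in sh718 than in sh720 by -0.41 (adjusted p 6.59e-04). LRP12, a receptor of the LDL receptor family 1118 kb after CTHRC1, had a log2 change of -0.41 in sh718 (adjusted p 0.154) and 0.61 in sh720 (adjusted p 0.0167), and differed between the hairpin lines by -1.02 (SE 0.19, adjusted p 1.27e-05). AZIN1, an inhibitor of the ornithine decarboxylase antizyme 545 kb before CTHRC1, fell by 0.33 on the log2 scale in sh718 (adjusted p 0.0296) and differed between the hairpin lines by -0.49 (adjusted p 3.78e-04). ATP6V1C1 and OXR1 were called in no comparison. Of the 6 tested neighbours, FZD6 among them, 4 were called lower in sh718 than in sh720, as CTHRC1 was, and these 4 calls held in all 17 alternatives. Among all tested genes 13% were called lower in sh718 than in sh720. The calls against control were less firm for AZIN1, lost without control library 1 or sh718 library 3 (log2 -0.23 and -0.26), with GC and length trends removed (adjusted p 0.0832) and in DESeq2 (adjusted p 0.139). The LRP12 call was lost without control library 1 or 3 or sh720 library 2 (log2 0.47 to 0.59) and in DESeq2 (adjusted p 0.176).

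**Figure D3:**
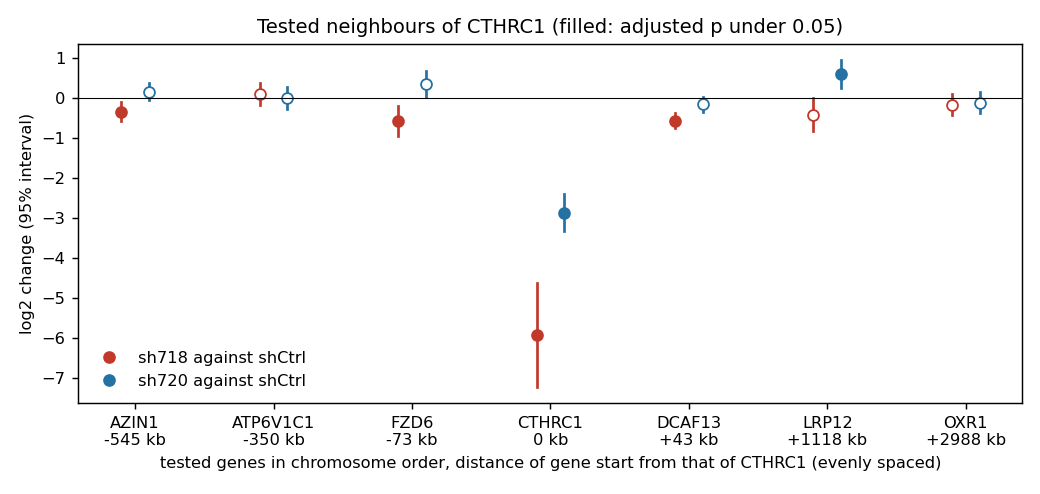
Log2 changes with 95% intervals (vertical axis) of CTHRC1 and the 3 nearest tested genes on each side, for sh718 (red) and sh720 (blue) against shCtrl, in chromosome order and evenly spaced. Filled points were called by edgeR at an adjusted p under 0.05. CTHRC1 lies at -5.91 and -2.86, and the neighbours within 1 log2 unit of 0, with FZD6, DCAF13 and AZIN1 lower in sh718.

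ROR1 was looked at in the same way, a choice made after its values were seen. Of its 6 nearest tested neighbours on chromosome 1 none was called in sh720, where ROR1 was higher and 6.85% of all tested genes were called. In sh718 against control 3 of these neighbours were called higher, where 9.56% of all tested genes were. They were PGM1 (log2 0.48, edgeR adjusted p 0.00202), AK4 (0.96, adjusted p 3.98e-07) and ITGB3BP (0.52, adjusted p 0.0395). The ITGB3BP call was lost in 8 of 17 alternatives, among them without any 1 of the control libraries or without sh718 library 1 or 2 (log2 0.34 to 0.57, adjusted p up to 0.304). PGM1, a phosphoglucomutase, and AK4, a mitochondrial adenylate kinase, were higher in sh718 than in sh720 by 0.41 and 0.72 (edgeR adjusted p 0.00633 and 4.31e-05), opposite in sign to ROR1. The PGM1 difference was lost without sh720 library 2 (adjusted p 0.0589).

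The genes whose pair of changes lay nearest to those of CTHRC1, by Euclidean distance over the 2 log2 changes against control, were still far from it. They were MIR30A at a distance of 1.70 (log2 -4.69 in sh718 and -4.04 in sh720, the latter -5.31 without sh720 library 2), FP671120.7 at 2.10 (-3.82 and -2.82) and the pseudogene MTCO2P12 at 2.51 (-6.13 and -5.36). MTCO2P12 is a near copy of a mitochondrial gene, and whether the counting split its reads and those of MT-CO2 was not tested. MT-CO2 had log2 changes of -0.21 in sh718 and -0.16 in sh720 against control, the latter not called. FZD6 had closer company, among it LPGAT1 at 0.0170 (-0.55 and 0.38) and DRAP1 at 0.0189 (-0.58 and 0.36). These distances use 3 line means that share the control and describe likeness only.

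Other genes of Wnt signalling were counted from 6 lists of 122 genes, of which 96 had a row and 60 were tested. The lists were chosen with earlier results of these data known, so the shares below describe them and are no test of the pathway. In sh718 against control 16 of the 60 were called, 7 higher and 9 lower, which is 26.7% beside 20.4% of all tested genes. In sh720 8 were called, 4 in each direction, or 13.3% beside 6.85%. Between the hairpin lines 15 were called, 6 higher and 9 lower in sh718, or 25% beside 25.3%. Median log2 changes of the 60 were -0.03, 0.07 and -0.07. Of these calls 9, 5 and 11 held in every alternative analysis, and the values below without a remark are of that kind. DESeq2 lost the calls of WNT4, DLG1, RHOA, MAPK9, SDC4 and PORCN in sh718, of SMURF2 and DKK1 in sh720, and of SMURF2, PPP3CA and GPC6 between the hairpin lines.

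Among other Wnt ligands 3 of 17 were tested, and WNT4 was called higher in sh718 at log2 1.31 (SE 0.44, edgeR adjusted p 0.0167), a call lost without control library 2 (0.78, adjusted p 0.173) or sh718 library 2 (1.24, adjusted p 0.0506). Without control library 1 the WNT4 value was 1.92. Among other Frizzled and LRP receptors 5 of 12 were tested. FZD4, a receptor for both Wnt and norrin, had a mean of 33.4 CPM in sh718 against 67 in control (log2 -0.99, SE 0.18, edgeR adjusted p 1.07e-05). Its mean in sh720 was 81.3, and the hairpin lines differed by -1.27 (adjusted p 6.41e-09). LRP5, a co-receptor of the beta-catenin branch, had 13.4 CPM in sh718 against 41.8 in control (log2 -1.63, SE 0.27, adjusted p 3.84e-07) and was lower there than in sh720 by -1.52 (adjusted p 1.64e-06). FZD8, with 502.7 CPM in control, fell in sh720 to 322.9 (log2 -0.63, SE 0.08, adjusted p 1.02e-08) and was higher in sh718 than in sh720 by 0.62 (adjusted p 4.98e-09). The receptor list thus had 2 of 5 called in sh718, both lower, beside 20.4% of all tested genes, and 1 of 5 in sh720, lower, beside 6.85%. Its median was -0.33 in sh718 and -0.10 in sh720.

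Among the other core polarity components VANGL2 had no row, and CELSR1, CELSR2, CELSR3, PRICKLE2 and PRICKLE3 had too few counts for a test. Of 8 tested members of 17, 1 rose and 1 fell in sh718, or 25% beside 20.4% of all tested genes. In sh720, where 6.85% of all tested genes were called, 0 of the 8 passed and the list median was -0.04. The casein kinase gene CSNK1D rose by 0.65 in sh718 (SE 0.13, edgeR adjusted p 5.89e-05). DLG1 changed by -0.53, a call lost in 6 of 17 alternatives, among them without control library 3 or sh718 library 2 or 3 (adjusted p up to 0.199). The Dishevelled genes DVL1, DVL2 and DVL3, which relay signals from Frizzled receptors, were tested and not called in any comparison.

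Of the effectors downstream 17 of 26 were tested, with 2 higher and 3 lower in sh718 and 1 higher and 2 lower in sh720. These are 29.4% and 17.6% of those tested, beside 20.4% and 6.85% of all tested genes. RAC1, a small GTPase of cell movement, rose in sh718 from 732 to 1048 CPM (log2 0.52, SE 0.06, edgeR adjusted p 1.90e-09) and JUN, a target of JNK, rose there by 1.13 (SE 0.12). RHOA, the GTPase of contractility, fell in sh720 by 0.43 (SE 0.07, adjusted p 4.48e-06). In sh718 RHOA was called at -0.19 (adjusted p 0.0359), a call lost in 8 of 17 alternatives, among them without control library 2 or 3 or sh718 library 2 or 3 (adjusted p up to 0.193 over the alternatives). MAPK9, which encodes the kinase JNK2, was called in sh718 at -0.69 (adjusted p 0.0358), a call lost in 7 of 17, among them without control library 1 or 3 or sh718 library 2 or 3 (adjusted p up to 0.286). FJX1, a relative of the polarity kinase Four-jointed, was lower by -1.11 in sh718 and -1.25 in sh720. MAPK9 differed between the hairpin lines by -1.03 (SE 0.24, adjusted p 3.86e-04). SMURF2, a ubiquitin ligase, was called higher in sh720 at 0.55, a call lost without sh720 library 3 (adjusted p up to 0.132). CDC42, ROCK1, ROCK2, DAAM1 and MAPK8 were tested and not called against control.

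In the calcium branch 17 of 20 were tested, with 1 higher and 1 lower in sh718 and 2 higher and 1 lower in sh720. These are 11.8% and 17.6% of those tested, beside 20.4% and 6.85% of all tested genes. The calcium-dependent kinase gene CAMK2G was lower in both lines (log2 -1.15 and -0.82, SE 0.14 and 0.13, edgeR adjusted p 8.77e-10 and 4.19e-06). The protein kinase C gene PRKCA rose in sh718 by 0.96 and differed between the hairpin lines by 1.1. The phospholipase gene PLCB4 rose by 0.52 in sh720, and PLCB1 was called there at 1.60, a call lost without control library 2 or sh720 library 3 (adjusted p up to 0.126). Among secretion and surface modulators 10 of 30 were tested, with 2 higher and 2 lower in sh718 and 1 higher in sh720. Those calls are 40% and 10% of the modulators tested, beside 20.4% and 6.85% of all tested genes. LGR4, a receptor for R-spondins, was called lower in sh718 at -1.56, lost without sh718 library 2 (-1.03, adjusted p 0.0768) and at -2.26 without sh718 library 3, and differed between the hairpin lines by -1.93 (SE 0.44, adjusted p 7.92e-05; -2.63 without sh718 library 3). DKK1, a secreted inhibitor of LRP5 and LRP6, was lower in sh718 by -1.08 and higher in sh720 by 0.22, the latter lost without control library 1 or 3 or sh720 library 1 or 2 (adjusted p up to 0.179). PORCN, the acyltransferase that Wnt ligands need for secretion, was called at 0.72 in sh718 and lost without control library 1 or sh718 library 2 (adjusted p up to 0.128). The secreted antagonist SFRP1 had 1 count over the 9 libraries, and WIF1 and FRZB had no row.

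**Figure D4:**
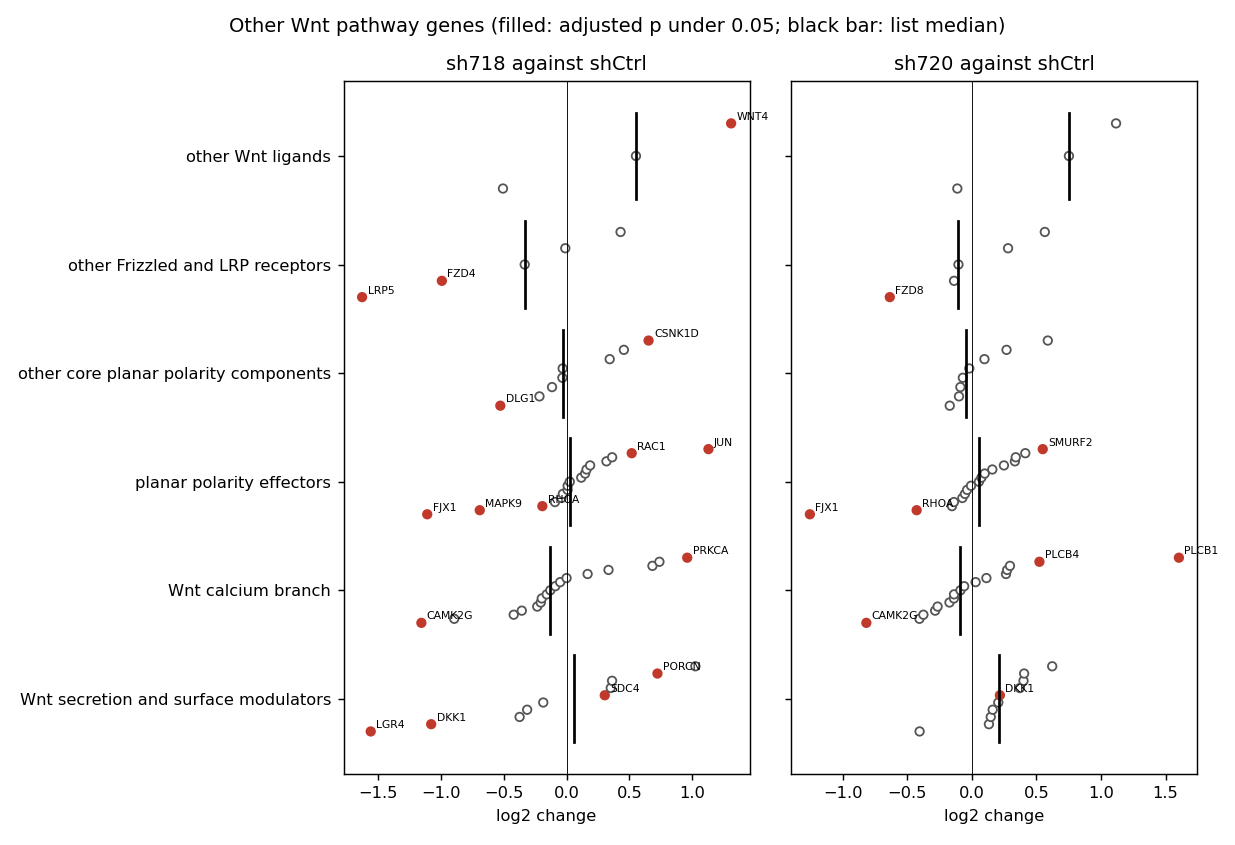
Log2 changes (horizontal axis) of the 60 tested genes of the 6 Wnt lists in sh718 (left) and sh720 (right) against shCtrl, spread within each list by value. Filled and named points were called by edgeR at an adjusted p under 0.05, 16 on the left and 8 on the right, and black bars are list medians. LRP5 and LGR4 are the lowest on the left, and FJX1 on the right.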

How the data were processed

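RNA was measured in 9 libraries, 3 of each PC3-Luc line, from cells cultured for 24 h, read as single reads of 75 bases at a stated 3000000 reads per sample, per the labels' protocols. The deposited values are raw read counts per gene; reads were trimmed with Trim Galore and the build was GRCh38, per the submitters' processing notes, while the aligner, the counter, the annotation release, the strand setting and the library kit were not given in the sources used here. Counts mapped to a gene length, position and symbol in GENCODE release 29 for 21258 of 21726 genes.

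Genes entered the test when the mean of the 3 line sums was 20 counts or more, which left 9556. The tool was edgeR 4.0.16 under R 4.3.3 (quasi-likelihood test after TMM scaling, 1 model of the 3 lines, Benjamini-Hochberg adjustment over all tested genes, call at an adjusted p under 0.05). Standard errors and 95% intervals come from the same fit and are not adjusted. The test was checked on simulated data. Alternatives were DESeq2 1.42.0, other scalings and filters, 2 lines only, a replicate block, leaving out each library and, added after seeing the data, removal of GC and length trends.

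Named were all members, up to 4 called genes per list, direction and comparison by level, the 3 tested genes on each side of CTHRC1, and the 3 genes nearest in pattern to CTHRC1 and FZD6. Of these, the called genes SDC4, PPP3CA and GPC6 and some calls of others are given by count alone. 1 gene named by this rule is not reported here. The members and lists were chosen with earlier results of these data known.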

Additional observations from a re-analysis of the deposited data

Results flagged for a closer look

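The changes of the 2 hairpin lines against the same control libraries differed from each other for 3 of the 8 tested members, CTHRC1 as the targeted gene among them, by the direct edgeR comparison of sh718 with sh720, where 25.3% of all tested genes were called. For CTHRC1 the log2 difference was -3.05 (adjusted p 2.50e-06), for ROR1 it was -1.33 (adjusted p 8.30e-05) and for FZD6 it was -0.93 (adjusted p 2.83e-05). All 3 libraries of sh718 lay below all 3 of sh720 for each of these genes. Libraries of these lines did not overlap for 37.1% of all tested genes. The test that picked these 3 genes used the same libraries, so their separation adds no further support. Over the 17 alternatives the highest adjusted p was 1.92e-04 for CTHRC1, 0.00355 for ROR1 and 0.00167 for FZD6.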

How the results depend on the processing

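Of 557 values of members and counts under the 17 alternatives, 503 were rated the same. For a member's change this means the same direction and side of the threshold, and for a count of called genes a number within a fixed ratio of the main one. Of 1147 values of other named genes 1055 kept direction and side, 91 lost a call, 1 gained one and 0 changed sign. The cause was not tested where a call changed. ROR1 in sh720 was not called with DESeq2 (0.80, adjusted p 0.223) or without a count filter (0.80, adjusted p 0.0514), and leaving out 1 library gave 0.73 to 0.88. FZD6 in sh718 was not called with DESeq2 (-0.56, adjusted p 0.141) or with GC and length trends removed (-0.44, adjusted p 0.0867), and leaving out 1 library gave -0.83 to -0.43. FZD2 between the hairpin lines was called with upper quartile scaling (0.59), with 2 lines only (0.57) and with GC and length trends removed (0.61), and leaving out 1 library gave 0.44 to 0.73; FZD2 in sh718 ranged from 0.30 to 0.68.

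Values close to 0 that changed sign were not called in any alternative. With GC and length trends removed RYK was 0.094 in sh718, -0.0041 in sh720 and 0.098 between the hairpin lines, and without 1 library it ranged from -0.17 to 0.25, from -0.17 to 0.18 and from -0.20 to 0.21. In sh720 PTK7 ranged from -0.17 to 0.34, FZD2 from -0.27 to 0.11 and VANGL1 from -0.16 to 0.088, with VANGL1 at 0.032 when scaled by library totals only.

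Called members numbered 1 in sh718 with DESeq2 and with GC and length trends removed, and 1 to 2 without 1 library. They numbered 1 in sh720 with DESeq2 and without a count filter, and 1 to 2 without 1 library. DESeq2 called 1007, 298 and 1293 of all genes in the 3 comparisons, where edgeR called 1947, 655 and 2419. Of the Wnt lists DESeq2 called 10 genes in sh718 and 5 in sh720, and leaving out 1 library gave 10 to 17 in sh718, with 10 without sh718 library 2. DESeq2 gave no adjusted p for some low genes.

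No pairing of the libraries by replicate number was seen. Deviations of same-numbered libraries had r of -0.0116 to 0.0234, and those of other numbers -0.0434 to 0.0412. Counting noise weakens such correlations, so a weak pairing could be missed. With the replicate number as a block 1977, 680 and 2425 genes were called, ROR1 in sh720 was 0.80 (adjusted p 0.0349), FZD6 in sh718 was -0.57 (adjusted p 0.0206), and no call of a member changed. With 883663 to 1108960 counts per library, the median standard error of a member's log2 change in sh718 was 0.22, which limits the size of change that could be called.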
